A study of Sus scrofa with 35 samples.

Results

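Glycolysis splits glucose into pyruvate in 10 enzymatic steps, and in fast muscle it supplies ATP during short, intense work. The genes described here encode the enzymes of these steps found in muscle, in the order of the pathway: HK2, GPI, PFKM, ALDOA, TPI1, GAPDH, PGK1, PGAM2, ENO3 and PKM. PFKM, PGAM2 and ENO3 are muscle isozymes, while GPI, TPI1, GAPDH and PGK1 are made in most tissues. HK2 phosphorylates incoming glucose, PFKM carries out the main committed step, and PKM forms pyruvate. They were chosen by name, as the probes whose gene name in the scanner files is 1 of these 10 symbols. That rule found 9 of the 10 genes, out of 10759 genes with a symbol on the array. They had 32 probes of 60305, of which 31 were kept by the filter on dim probes, among 41517 kept in all. The probe that was not kept is 1 of 5 for GPI and was well above background on 1 array. No probe carries the name PKM. The array files name pyruvate kinase M by its older symbol PKM2, and its 5 probes, all kept, are given beside the others as an addition made after the files were seen.

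The samples are longissimus dorsi, a back muscle made mostly of fast glycolytic fibres, from castrated male pigs of the Creole and Large White breeds and their F1 cross. Thermoneutral (TN) pigs were kept at 24 °C, and heat-stressed (HS) pigs were slaughtered after 4 or 5 days of heat. The heat is 30 °C in the sample labels and 32 °C in the growth protocol and the study methods, and that disagreement was not resolved. There were 6 arrays in each breed and temperature group except F1 HS, which had 5, so 18 TN arrays stand against 17 HS arrays. Pigs entered the climatic room at 11 weeks of age, TN pigs were slaughtered before the temperature rose, HS pigs came from other pens and later days, and they ate less. Temperature therefore cannot be told apart from slaughter day, age, pen and feed intake. Each breed came from 3 blocks of 4 littermates, a kinship the labels do not give per array, and the p-values treat arrays as independent animals.

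All 10 skeletal muscle markers on the list used here were measured on all 35 arrays, ACTA1 and CKM among them. The 75th percentile of unnormalised log2 intensity ranged from 8.73 to 9.62 over arrays and averaged 9.05 ± 0.17 in the 18 TN arrays and 9.24 ± 0.24 in the 17 HS arrays (mean ± SD). Leukocyte markers passed the test as higher in HS for 5 of 14, with a median difference of 0.72 log2 and a summed level (log2 of the summed intensities) of 12.61 to 15.79 in TN and 13.89 to 16.28 in HS. Connective tissue markers passed as higher for 8 of 15, with summed levels of 17.40 to 18.79 in TN and 18.25 to 19.14 in HS. Of the other marker lists, 3 of 9 endothelium and 2 of 4 blood cell markers were lower in HS, 2 of 8 nerve markers were higher, 0 of 9 adipocyte markers passed, and of the 10 skeletal muscle markers 1 was higher and 2 were lower. Of all kept probes, 16.0% passed with temperature in either direction and 8.30% passed as lower. The part of these cell types in the results was not tested. In whole muscle, fewer cells of a type and less RNA per cell cannot be told apart.

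Each gene is described by its main probe, the kept probe with the highest mean. Values are log2 of the quantile-normalised median pixel intensity, and a level of one probe is not compared with that of another gene. The 60-base probe sequences matter here because probes of 1 gene gave temperature differences of different size. Among the 37 probes of these genes and PKM2 there are 36 distinct sequences. The 4 ENO3 probes are shown because they disagreed most, ordered from the brightest to the dimmest, with capitals marking the 41 bases shared by the middle probes.
ENO3 O8712: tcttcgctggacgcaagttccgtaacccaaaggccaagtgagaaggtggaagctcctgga
ENO3 A_72_P637644: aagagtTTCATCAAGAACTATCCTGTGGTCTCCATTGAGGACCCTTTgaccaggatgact
ENO3 A_72_P641194: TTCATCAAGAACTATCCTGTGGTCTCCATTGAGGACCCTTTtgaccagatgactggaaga
ENO3 A_72_P035996: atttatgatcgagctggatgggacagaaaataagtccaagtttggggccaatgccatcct

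The brightest GAPDH probe and both PGAM2 probes are shown for the same comparison of bright and dim probes, and none of them shares a run of 20 bases or more with another probe of its gene.
GAPDH A_72_P321038: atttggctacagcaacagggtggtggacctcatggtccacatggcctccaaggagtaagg
PGAM2 O14582: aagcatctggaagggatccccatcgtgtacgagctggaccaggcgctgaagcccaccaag
PGAM2 A_72_P260562: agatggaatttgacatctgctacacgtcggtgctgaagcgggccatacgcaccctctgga

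TPI1 gives a check of repeated measurement, since probes A_72_P532638 and A_72_P073361 carry the same sequence, printed once here. The other TPI1 probes shown overlap by 23 bases, in capitals.
TPI1 A_72_P532638: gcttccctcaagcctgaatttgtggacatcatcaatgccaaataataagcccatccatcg
TPI1 A_72_P303269: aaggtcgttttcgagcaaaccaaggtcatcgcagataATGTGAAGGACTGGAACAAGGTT
TPI1 A_72_P682691: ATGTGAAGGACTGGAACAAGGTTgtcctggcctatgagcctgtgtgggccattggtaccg

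The first comparison asked whether expression differed between HS and TN over the 3 breeds. Of the 9 genes found by name, 6 passed the test and all 6 were lower in HS: GPI, PFKM, ALDOA, TPI1, PGK1 and PGAM2. HK2, GAPDH and ENO3 did not pass by their main probe. PKM2 passed and was lower. Among all kept probes 16.0% passed in either direction and 8.30% passed as lower, against 6 of 9 main probes (66.7%) here. Over all kept probes of the 9 genes, 26 of 31 (83.9%) passed, all lower, and the median difference was -0.41 log2 against -0.02 over all 41517 probes. Probes of 1 gene measure the same RNA, so the 31 are not independent. The test was limma on the additive model of breed and temperature, with Benjamini-Hochberg adjustment over all kept probes at 0.05.

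**Figure D1:**
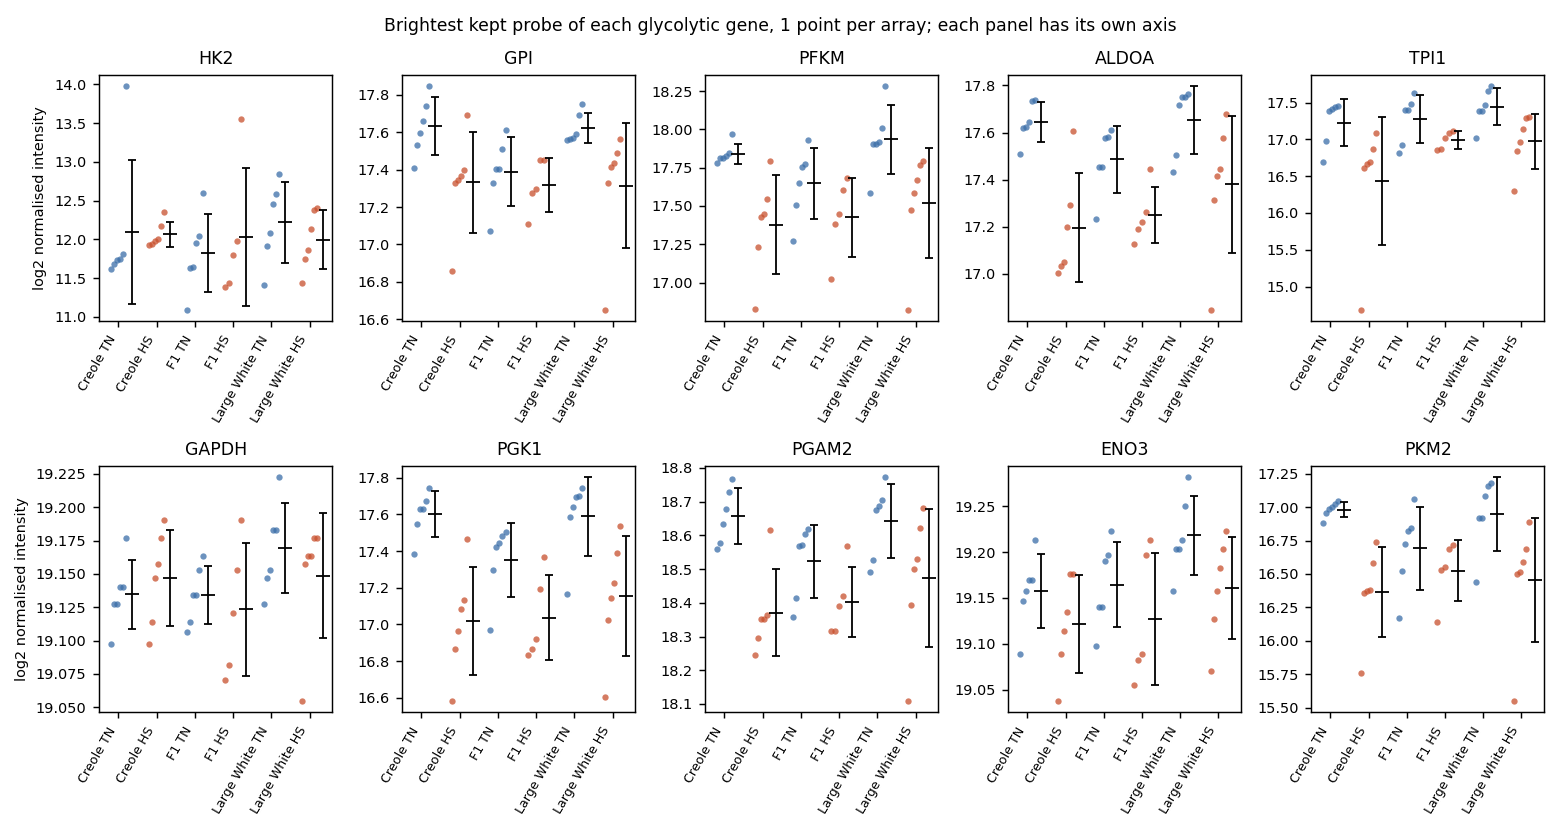
Log2 normalised intensity of the main probe of each gene on every array, in the order of the pathway, with TN arrays in blue, HS arrays in red, and the group mean with its SD in black. In PGK1 and PFKM all 17 HS arrays lie below the TN median, while the HK2 groups overlap throughout and GAPDH and ENO3 span a narrow range.

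The first steps prepare glucose for splitting. HK2 traps glucose in the cell as glucose 6-phosphate. Its TN arrays had a lowest value of 11.09, a median of 11.86 and a highest of 13.98, and its HS arrays 11.39, 11.98 and 13.56. The groups overlapped throughout and the difference was -0.02 ± 0.19 log2 (SE, adjusted p = 0.953, limma). HK2 varied more among animals of 1 group than any other gene here, with a pooled within-group SD of 0.61 log2. A single Creole TN array at 13.98 and a single F1 HS array at 13.56 stood above the rest of their groups. Its other probe gave -0.02 ± 0.17 log2 (SE).

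GPI turns glucose 6-phosphate into fructose 6-phosphate. TN arrays of GPI ran from 17.07 over a median of 17.57 to 17.85, and its HS arrays from 16.65 over 17.36 to 17.69. The ranges overlapped, although 16 of 17 HS arrays lay below the TN median. GPI fell by 0.23 ± 0.07 log2 (SE, -14.9%, adjusted p = 0.0262, limma). Its 3 other kept probes passed too, with differences of -0.35, -0.42 and -0.37 log2.

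PFKM, muscle phosphofructokinase, is the main control point of the pathway. In TN it ran from 17.27 over a median of 17.82 to 18.29, and in HS from 16.82 over 17.48 to 17.79. All 17 HS arrays lay below the TN median and 11 of 18 TN arrays lay above the highest HS array. PFKM fell by 0.37 ± 0.09 log2 (SE, -22.7%, adjusted p = 0.00392, limma), with its other probes at -0.48 and -0.53 log2, both past the threshold.

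ALDOA cleaves the 6-carbon sugar, and TPI1 interconverts the resulting triose phosphates. ALDOA has 1 probe. Its level ran from 17.23 over a median of 17.62 to 17.76 in TN, and from 16.85 over 17.26 to 17.68 in HS. Of the HS arrays, 8 lay below the lowest TN array. ALDOA fell by 0.32 ± 0.06 log2 (SE, -20.0%, adjusted p = 0.000999, limma), and 16 of 17 HS arrays lay below the TN mean of their own breed.

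The TN arrays of TPI1 ran from 16.69 over a median of 17.40 to 17.73, and the HS arrays from 14.69 over 16.87 to 17.30. The lowest value was 1 Creole HS array at 14.69. TPI1 fell by 0.52 ± 0.15 log2 (SE, -30.4%, adjusted p = 0.0140, limma), all 17 HS arrays lay below the TN mean of their breed, and without that array, Creole HS replicate 1, the fall was 0.40 log2. The 6 TPI1 probes gave differences from -0.52 to -0.55 log2, all past the threshold. The probes of identical sequence shown above differed in mean level, 16.84 against 16.23, but gave close differences of -0.52 and -0.54 log2.

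The later steps pay back ATP. GAPDH oxidises glyceraldehyde 3-phosphate, and is often used as a reference gene. Its TN arrays ran from 19.10 over a median of 19.14 to 19.22 and its HS arrays from 19.05 over 19.16 to 19.19. Both groups lay within 0.17 log2 and the difference was -0.01 ± 0.03 log2 (SE, adjusted p = 0.899, limma). Its other probe gave 0.02 log2. A further kept probe, described in the files as similar to rat GAPDH but not named GAPDH, was dimmer at a mean of 15.73 and gave -0.35 ± 0.12 log2 (SE, adjusted p = 0.0479, limma). Another, described as similar to a bacterial GAPDH and with a mean of 10.16, gave -0.08 ± 0.07 log2 (SE, adjusted p = 0.451, limma).

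PGK1 makes the first ATP of the payoff phase. Its TN arrays ran from 16.97 over a median of 17.57 to 17.74, and its HS arrays from 16.58 over 17.09 to 17.54. All 17 HS arrays lay below the TN median and 7 lay below the lowest TN array. PGK1 fell by 0.45 ± 0.08 log2 (SE, -26.7%, adjusted p = 0.000427, limma), the smallest adjusted p among the main probes here. Its 7 kept probes gave differences from -0.38 to -0.56 log2 and all passed.

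PGAM2 is the muscle form of phosphoglycerate mutase. The TN range was from 18.36 over a median of 18.61 to 18.77, and the HS range from 18.11 over 18.39 to 18.68. Of the HS arrays, 7 lay below the lowest TN array. PGAM2 fell by 0.19 ± 0.05 log2 (SE, -12.6%, adjusted p = 0.00564, limma), and its other probe by 0.33 log2.

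ENO3 is the muscle form of enolase. By its main probe, TN arrays ran from 19.09 over a median of 19.18 to 19.28 and HS arrays from 19.04 over 19.13 to 19.22. The difference was -0.04 ± 0.03 log2 (SE, adjusted p = 0.285, limma). The 3 dimmer ENO3 probes all passed, at -0.21, -0.25 and -0.41 log2, with adjusted p values of 0.00400, 0.00166 and 0.0119 (limma). So whether ENO3 counts among the genes lower in HS depends on the probe.

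PKM2, the name under which the arrays carry pyruvate kinase M, had TN arrays from 16.17 over a median of 16.94 to 17.18 and HS arrays from 15.55 over 16.53 to 16.89. All 17 HS arrays lay below the TN median. PKM2 fell by 0.43 ± 0.10 log2 (SE, -26.0%, adjusted p = 0.00455, limma), and its 5 probes all passed, from -0.37 to -0.51 log2. With it, 7 of 10 main probes passed.

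The 6 calls held when any 1 of the 35 arrays was left out. They did not all hold when a technical or cell type measure entered the model. With array brightness (the 75th percentile above) as a covariate, ALDOA and PGK1 still passed and GPI, PFKM, TPI1 and PGAM2 did not, leaving 2 of 9 where 5.04% of all kept probes passed. With the mean of the leukocyte markers the same 2 genes passed, where 6.26% of all kept probes did. All 6 kept their sign and all were closer to 0. With brightness in the model the differences were -0.14 log2 for GPI, -0.23 for PFKM, -0.19 for ALDOA, -0.31 for TPI1, -0.34 for PGK1 and -0.11 for PGAM2, and with the leukocyte markers -0.15, -0.21, -0.22, -0.34, -0.26 and -0.11. PKM2 did not pass with either, at -0.26 log2 with brightness (adjusted p = 0.0861, limma) and -0.23 with the leukocyte markers (adjusted p = 0.123, limma). The part of brightness and of leukocytes in the differences was not tested further.

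Arrays lay on 5 slides, and 4 of these held 4 HS and 4 TN arrays each. Within these 4 slides the difference was below 0 on all 4 for PFKM, ALDOA, TPI1, PGK1 and ENO3, and on 3 of 4 for GPI, PGAM2 and PKM2. GAPDH and HK2 were below 0 on 2 of 4. PGK1 ranged from -0.68 to -0.19 log2 over the slides and TPI1 from -1.25 to -0.12. A single slide gave the upper end of both ranges. On it GPI and PGAM2 differed by 0.01 log2, PKM2 by 0.00, ALDOA by -0.08 and PFKM by -0.12. The slides holding Creole HS replicate 1 and Large White HS replicate 5 gave larger falls in these genes than the other slides with a value. The remaining slide, with 3 arrays, gave no value.

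The size of the temperature difference was next set against how bright each probe was. The brightest ENO3 probe and both GAPDH probes were at the top of the range, ranking 18, 22 and 36 by mean among 60305 probes. Their spots reached 65.9% to 82.7% (ENO3) and 66.2% to 83.0% (GAPDH) of the scanner's saturation value, and no spot was saturated. The 3 genes that did not pass by main probe thus include both genes whose main probe lay highest.

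**Figure D2:**
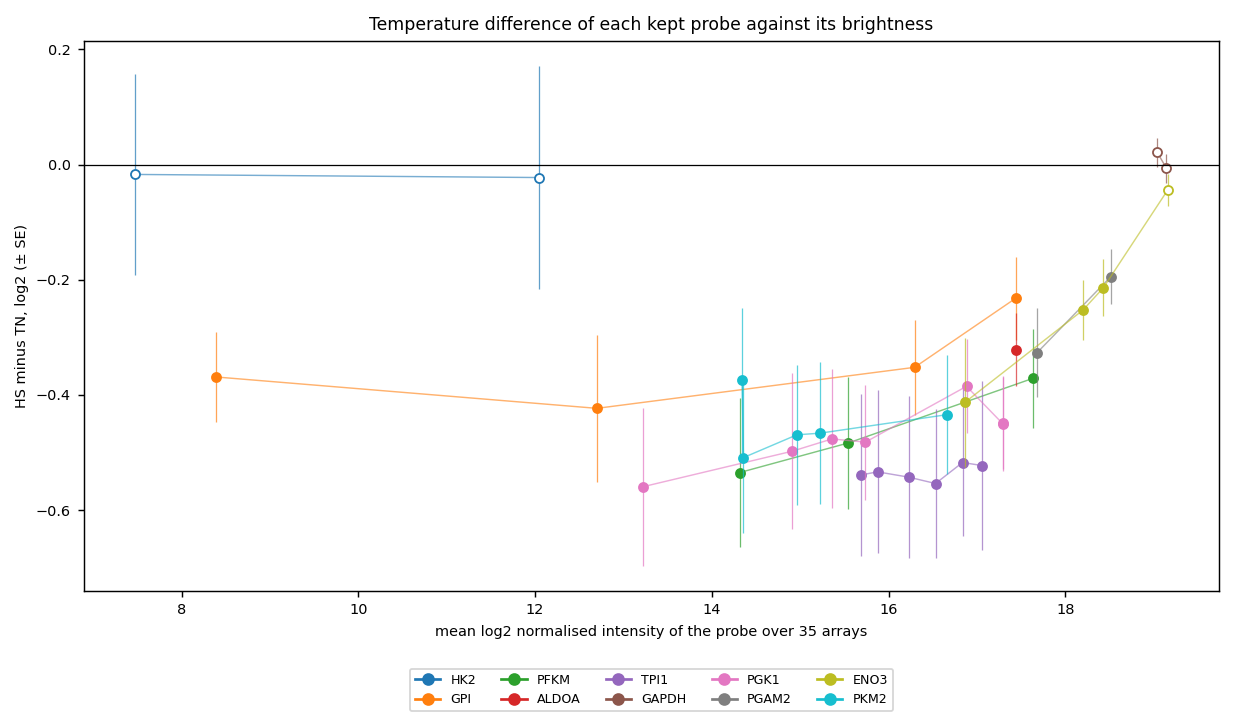
HS minus TN difference (log2, with SE) of every kept probe of the 10 genes against the mean log2 normalised intensity of that probe, with filled points for adjusted p under 0.05 and lines joining probes of 1 gene. Probes of ENO3, PGAM2, PFKM and GPI lie closer to 0 at their bright end, and those of TPI1 lie level.

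Within a gene, the dimmest and the brightest probe were compared on the same arrays, with temperature permuted within breed and p adjusted over the 9 genes with over 1 probe. In ENO3 the dimmest probe, A_72_P035996, fell by 0.37 ± 0.11 log2 (SE) more than the brightest, O8712 (permutation test, two-sided, adjusted p = 0.0185). In PGAM2 the dimmer probe, A_72_P260562, fell by 0.13 ± 0.04 log2 (SE) more (permutation test, adjusted p = 0.0210). In PFKM the gap was -0.16 ± 0.06 log2 (SE, permutation test, adjusted p = 0.0416). In GPI it was -0.14 log2 and missed the threshold (permutation test, adjusted p = 0.0805).

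The other genes gave no gap past the threshold: -0.11 ± 0.09 log2 in PGK1, -0.02 ± 0.06 in TPI1, 0.06 ± 0.08 in PKM2, 0.03 ± 0.02 in GAPDH and 0.01 ± 0.06 in HK2 (SE in each). Taking probes in pairs, the brighter had the smaller difference in 6 of 6 pairs for ENO3, 3 of 3 for PFKM, 5 of 6 for GPI, 18 of 21 for PGK1, and 1 of 1 for PGAM2 and for GAPDH, but in 9 of 15 for TPI1, 6 of 10 for PKM2 and 0 of 1 for HK2. The middle ENO3 probes, which share 41 bases, gave -0.21 and -0.25 log2.

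The calls of ENO3 and GAPDH changed with the scaling, and the other genes moved with them. When arrays were scaled to a common median instead, ENO3 differed by -0.17 log2 and passed (adjusted p = 0.0382, limma) and GAPDH by -0.14 log2 and did not (adjusted p = 0.0716, limma). With processed signals scaled to the 75th percentile, GAPDH differed by -0.23 log2 and passed (adjusted p = 0.0466, limma), and ENO3 by -0.23 log2 and did not (adjusted p = 0.0539, limma). With scaling to the bright spike-in controls neither passed, at -0.10 log2 for ENO3 and -0.07 for GAPDH. The 6 genes that passed by main probe also did so under each of these 3 scalings, with differences of -0.56 to -0.30 log2 by the median, -0.63 to -0.39 by the 75th percentile and -0.49 to -0.22 by the spike-in controls. By the 75th percentile PGAM2 differed by -0.43 log2 and GPI by -0.39, and by the median PGAM2 differed by -0.34, each over 1.5 times the value given above. The share of all kept probes passing under each scaling is not given here, so the larger sizes are not shown to be particular to these genes. Unnormalised intensity at the 75th percentile was 0.18 log2 higher in HS arrays. The cause of the changes with scaling was not tested.

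The second comparison took temperature within each breed. In Creole 2 of 9 main probes passed, ALDOA at -0.45 ± 0.11 log2 (SE, adjusted p = 0.0322, limma) and PGK1 at -0.58 ± 0.14 log2 (SE, adjusted p = 0.0311, limma), against 1.91% of all probes, with 0.874% passing as lower. TPI1 differed by more, -0.79 ± 0.25 log2 (SE), without passing (adjusted p = 0.0769, limma). Of the 31 probes 10 passed, all lower, and 29 were below 0. The count of 2 main probes rested on single arrays. It was 0 without any 1 of Creole TN replicates 1, 5 and 6 or Creole HS replicates 1, 3, 5 and 6. It was 1 without Creole TN replicate 4, 4 without Large White HS replicate 5, and 5 without Creole HS replicate 2.

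In F1 and in Large White 0 of 9 passed, where 0.00482% of all probes passed in each. At an unadjusted p under 0.05, 2 of 9 main probes passed in F1, where 8.30% of all probes did, and 5 of 9 in Large White, where 16.6% did. The sizes were still mostly below 0, in 8 of 9 genes in F1 and 9 of 9 in Large White. PGK1 differed by -0.32 ± 0.14 log2 (SE) in F1 and -0.43 ± 0.14 in Large White, and PFKM by -0.22 ± 0.16 and -0.42 ± 0.15. In Large White the count of main probes passing after adjustment was 1 without Large White TN replicate 6.

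**Figure D3:**
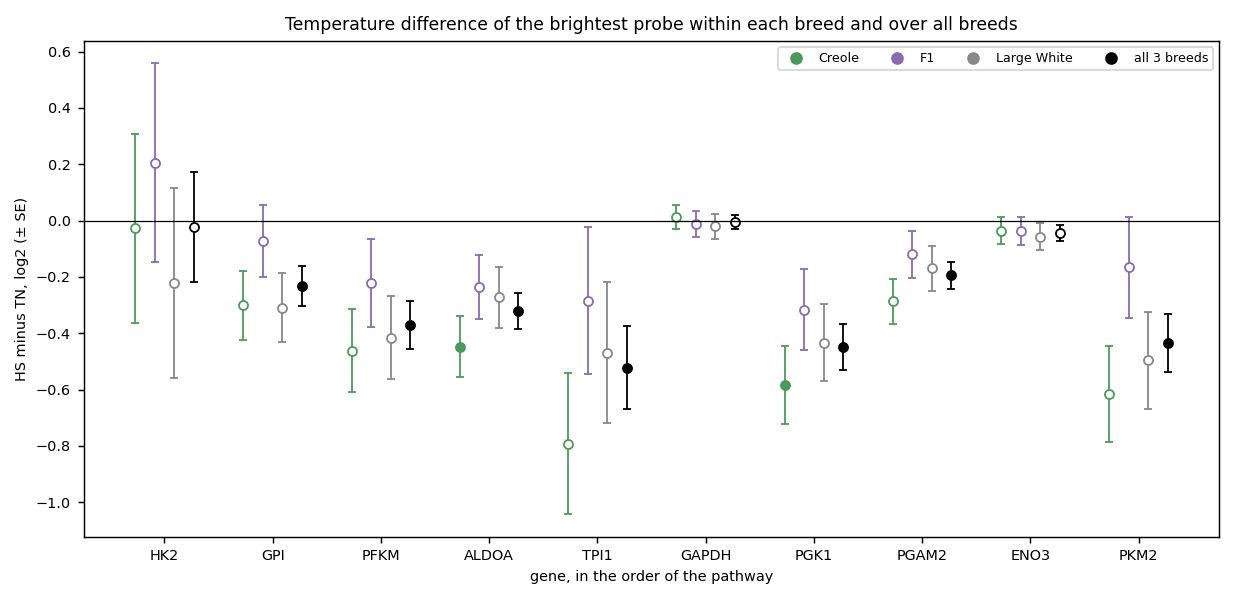
HS minus TN difference (log2, with SE) of the main probe of each gene within Creole (n = 6 against 6), F1 (5 against 6), Large White (6 against 6) and over all breeds, with filled points for adjusted p under 0.05. Most points lie below 0 in every breed, those of F1 nearest to 0 of the breeds in GPI, PFKM, ALDOA, TPI1, PGK1, PGAM2 and PKM2, and none of the differences between breeds passed the test.

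Whether the temperature difference itself differed between breeds was tested by the interaction term. It passed for 0 of 9 genes (smallest adjusted p = 0.963, limma), as for 0% of all probes. At an unadjusted p under 0.05 it was 0 of 31 member probes against 3.84% of all kept probes. So a call in Creole without one in F1 or Large White is no evidence of a difference between them.

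The group means were ordered by temperature in several genes. For PGK1 the means were 17.60 ± 0.13 in Creole TN, 17.59 ± 0.21 in Large White TN, 17.35 ± 0.20 in F1 TN, 17.16 ± 0.32 in Large White HS, 17.04 ± 0.23 in F1 HS and 17.02 ± 0.29 in Creole HS (SD, n = 6, F1 HS 5). Neighbours in this order differed by about their SD or less, and the lowest TN mean stood above the highest HS mean. For ALDOA the TN means were 17.65 ± 0.15 in Large White, 17.65 ± 0.09 in Creole and 17.49 ± 0.14 in F1, and the HS means 17.38 ± 0.29, 17.20 ± 0.23 and 17.25 ± 0.12. PKM2 had TN means of 16.98 ± 0.06 in Creole, 16.95 ± 0.28 in Large White and 16.69 ± 0.31 in F1, and HS means of 16.37 ± 0.33, 16.45 ± 0.46 and 16.53 ± 0.23. In these 3 genes F1 TN had the lowest of the TN means.

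Breed was then compared with temperature in the model. No main probe passed for Creole minus Large White, where 3.64% of all probes did, for F1 minus Large White (0.525%), for F1 minus Creole (0.477%) or for F1 minus the mean of the parent breeds (0.246%). No other member probe passed either. At an unadjusted p under 0.05 the count was 1 of 9 for Creole minus Large White, where 15.4% of all probes passed. It was TPI1 at -0.38 ± 0.18 log2 (SE, adjusted p = 0.293, limma) by its main probe, while its other probes gave -0.15 to -0.05. For F1 minus Large White, F1 minus Creole and F1 minus the parental mean the count was 0 of 9. Of all 41517 kept probes 4371, 3685 and 3053 passed there. F1 was below Large White in 9 of 9 main probes and below the parental mean in 8 of 9, with sizes of -0.20 to -0.03 and -0.17 to 0.10 log2. The 0.10 was TPI1 by its main probe, while its other probes gave -0.10 to -0.09 log2. These contrasts share their arrays and the genes vary together, so the signs are a description.

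How the genes varied among animals was read from deviations from the 6 group means, over 35 arrays and 45 pairs of genes, PKM2 included. The points share the array, its labelling and its normalisation. Of 45 pairs 26 passed (permutation test within groups, two-sided, 100000 resamples, Benjamini-Hochberg over the 45 pairs), 23 with r above 0, and 22 passed by Spearman's rho. The median Pearson r was 0.44. ALDOA and PGAM2 had the highest, r = 0.90 and rho = 0.86, both at the smallest p these permutations can give (1e-05), and r was 0.83 without the 2 arrays farthest from the ALDOA median. PFKM with PKM2 had r = 0.90 and rho = 0.67, and PFKM with PGK1 r = 0.86 and rho = 0.77, with r of 0.82 and 0.79 when the 2 farthest arrays were left out.

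**Figure D4:**
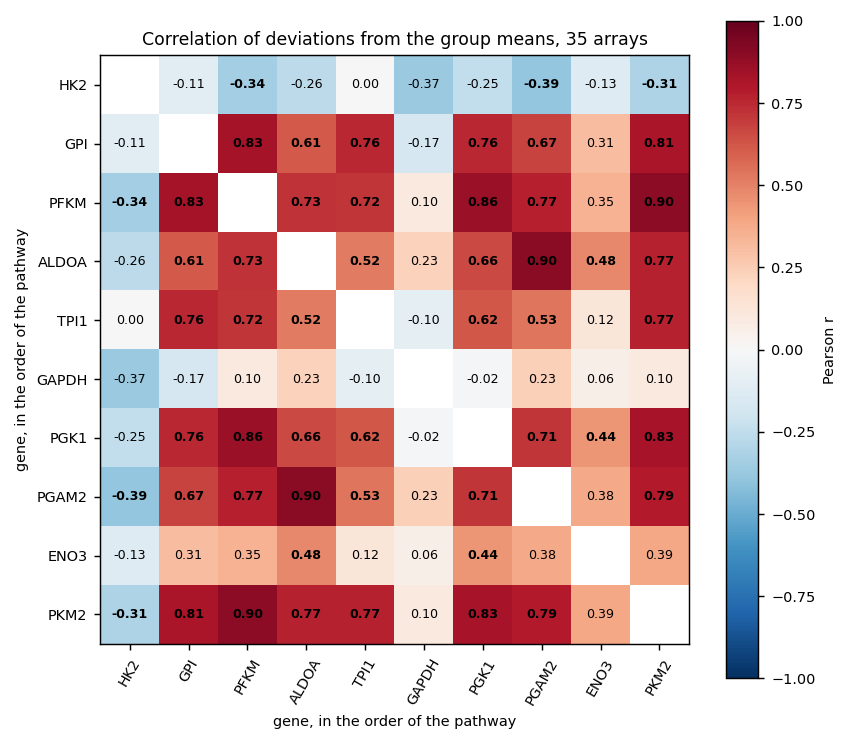
Pearson r of deviations from the group means for each pair of genes over 35 arrays, in the order of the pathway, with bold print for adjusted p under 0.05. GPI, PFKM, ALDOA, TPI1, PGK1, PGAM2 and PKM2 form a block of pairs above 0, and GAPDH and HK2 lie outside it.

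The genes did not all vary together. By Pearson's r GAPDH passed with 0 of 9 partners, at r from -0.37 to 0.23, and ENO3 with 2 of 9. HK2 had r from -0.39 to 0.00 and passed with 3, each below 0: PGAM2 (r = -0.39, rho = -0.42), PFKM (r = -0.34, rho = -0.29) and PKM2 (r = -0.31, rho = -0.25). Of these 3, only HK2 with PGAM2 also passed by rho (adjusted p = 0.0338, permutation test). HK2 with GAPDH did not pass by r (r = -0.37, adjusted p = 0.0646, permutation test) but passed by rho (rho = -0.42, adjusted p = 0.0368, permutation test). Some arrays were low in many genes at once. Large White HS replicate 5 was the lowest of all 35 in 5 of the 10 genes and second lowest in 2 others. Creole HS replicate 1 was lowest in 2 and second lowest in 4. These arrays also had the highest leukocyte marker means of all 35. Large White HS replicate 5 was at 11.18 log2 and Creole HS replicate 1 at 11.13. Their array brightness was 9.62 log2, the highest of all 35, and 9.57. Neither measure entered the correlations, and the part of brightness and of leukocytes in them was not tested. Without Large White HS replicate 5, 18 of 45 pairs passed. Scaling also mattered, since 44 of 45 pairs passed with median scaling.

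The neighbouring genes of the pathway came from a list of 76, of which 62 had a kept probe. With temperature 25 of 62 passed, 22 lower and 3 higher, where 16.0% of all kept probes passed and 8.30% passed as lower, with a median difference of -0.17 log2 against -0.02 over all kept probes. With Creole against Large White 0 of 62 passed, where 3.64% of all kept probes did, and none passed with any 1 array left out.

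**Figure D5:**
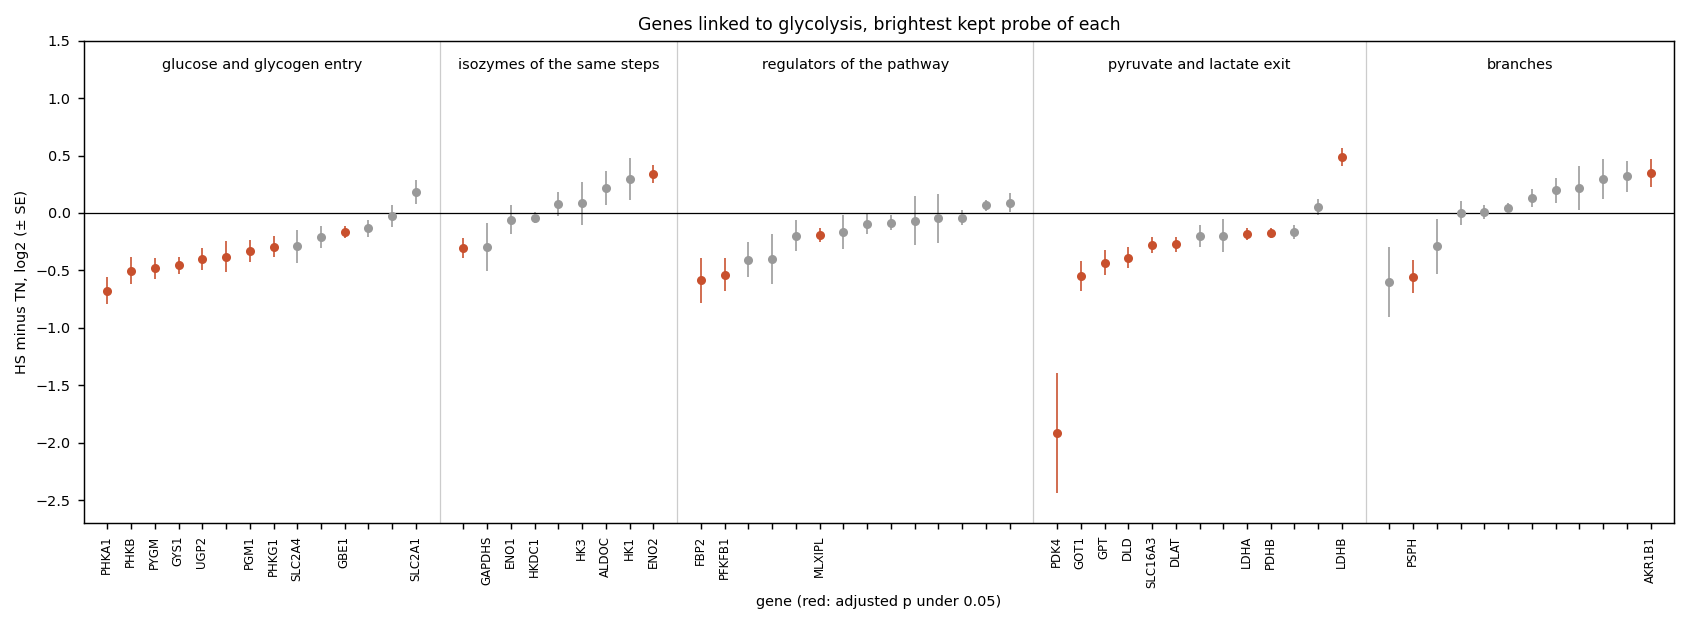
HS minus TN difference (log2, with SE) of the brightest kept probe of each of 62 genes linked to glycolysis, in 5 groups, with red for adjusted p under 0.05 and names for the genes given in the text. Genes of glucose and glycogen entry and of pyruvate and lactate exit lie mostly below 0, and PDK4 has the largest fall and the widest error.

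Glucose and glycogen entry had 9 of 14 lower and 0 higher. PHKA1, the regulatory alpha subunit of the kinase that switches on glycogen breakdown, fell by 0.68 ± 0.12 log2 (SE, adjusted p = 0.000375, limma) and was below its breed's TN mean in 17 of 17 HS arrays. Others that fell were PHKB and PHKG1 of the same kinase, PYGM, which breaks glycogen down, GYS1, GBE1 and UGP2, which build it, and PGM1. GBE1 and PGM1 passed by their brightest probe only, and their other kept probes did not pass. The glucose transporters SLC2A1 (0.18 log2) and SLC2A4 (-0.29 log2) did not pass.

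Pyruvate and lactate exit had 8 of 13 lower and 1 higher. PDK4, the kinase that shuts pyruvate dehydrogenase, fell by 1.92 ± 0.52 log2 (SE, adjusted p = 0.0115, limma), and 10 other probes of it passed in the same direction. LDHB, the heart-type lactate dehydrogenase subunit, rose by 0.49 ± 0.08 log2 (SE, adjusted p = 0.000171, limma), with 17 of 17 HS arrays above the TN mean of their breed, while LDHA, the muscle-type subunit, fell by 0.18 log2 (adjusted p = 0.0137, limma). GOT1, GPT, DLD, DLAT, PDHB and SLC16A3 also fell, PDHB and SLC16A3 by their brightest probe only. Some genes of this group that did not pass by their brightest probe had other probes that passed as lower. The count in this group thus depends on the probe.

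The branches passed about as often as all kept probes (16.0% in either direction, 8.30% as lower). Among regulators 3 of 14 passed, all lower, and 12 of 14 were below 0, with a median difference of -0.13 log2. FBP2, the muscle fructose bisphosphatase, was at -0.59 ± 0.20 log2 (SE, adjusted p = 0.0400, limma), beside PFKFB1 and MLXIPL. Among branches 2 of 12 passed. PSPH of serine synthesis was at -0.55 ± 0.15 log2 (SE, adjusted p = 0.00994, limma). AKR1B1, aldose reductase, was at 0.35 ± 0.12 log2 (SE, adjusted p = 0.0481, limma), and its other kept probes did not pass.

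Isozymes of the same steps that are typical of other tissues gave differences of both signs. ENO2 rose by 0.34 ± 0.08 log2 (SE, adjusted p = 0.00277, limma), from a dim probe with a mean of 6.35. HK1 (0.29 log2), ALDOC (0.22), HK3 (0.08), HKDC1 (-0.04), ENO1 (-0.06) and GAPDHS (-0.29) did not pass. The difference between these and the 10 genes above was not tested. With array brightness as a covariate 7 of the 62 linked genes passed, where 5.04% of all kept probes did. With the leukocyte markers 9 passed, where 6.26% of all kept probes did, against 16.0% without a covariate.

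Since this muscle is made mostly of fast glycolytic fibres, fibre markers are given beside these genes. Of 11 fast fibre markers 4 passed, all lower: ATP2A1 (-0.46 log2), MYBPC2 (-0.50), MYH2 (-0.21) and TNNI2 (-0.15). Among all kept probes 8.30% passed as lower and 16.0% in either direction. The summed level of the 11 ran from 21.72 to 21.82 in TN and 21.49 to 21.80 in HS. The other 7 did not pass, with differences from -0.82 log2 (PVALB, adjusted p = 0.0528, limma) to 0.00 (MYLPF). Of 10 slow fibre markers 1 was higher, CASQ2 at 0.86 log2, and 1 lower, TPM3 at -0.29. MYH7, the slow myosin, differed by -0.02 log2. The part of fibre makeup in the differences was not tested.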

How the data were processed

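Cy3-labelled cRNA of 35 muscle samples was hybridised to 1-colour Agilent porcine arrays on 5 slides. The deposited scanner files, made by the authors with Feature Extraction 10.10.1.1 per the submitters' processing notes, hold each spot's median pixel intensity on a linear scale. The deposited value table holds log2 values that the authors quantile-normalised and filtered, and it served as an alternative. Here the median intensity was quantile-normalised without background subtraction, log2 was taken, the 105 spots flagged by the scanner software as outliers were removed, and repeated spots were averaged by probe. Probes well above background on 75% of the arrays of at least 1 group were kept. The models of limma 3.58.1 (R 4.3.3) took all 35 arrays: breed plus temperature, or 1 mean per group, with Benjamini-Hochberg adjustment at 0.05. The fits were tested on simulated data. The labels do not give pen, slaughter day, father or mother, the random terms of the study's model, so these could not enter. All 10 genes were named by their brightest kept probe, and other member probes were counted and named where they differed in call. Of the linked genes, the 4 largest falls and rises among those passing (3 rises passed) and each measured isozyme were named, except genes that are not reported here, and the fuller lists of passing genes, the glucose transporters and the fibre markers were named after their values were seen. The genes and lists were chosen with earlier results of these data known. Alternatives covered scaling, background, filter, probe choice, slide, weights, covariates and each array left out. Array number limits the precision. No genome position is printed, because the scanner files name no genome build.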

Additional observations from a re-analysis of the deposited data

Results flagged for a closer look

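Among the 60 combinations of gene and group, 11 held an array whose gap to its nearest neighbour was large against the range of the group by Dixon's ratio at the 95% level. Chance flags about 1 in 20 groups. The ratio of gap to range was 0.845 for GAPDH in Large White HS replicate 1 (lowest, 19.05 log2), 0.739 for GPI in Large White HS replicate 5 (lowest, 16.65), 0.675 for PFKM in the same array (lowest, 16.82) and 0.709 for PKM2 in it (lowest, 15.55). It was 0.802 for TPI1 in Creole HS replicate 1 (lowest, 14.69), 0.729 for PGK1 in Large White TN replicate 6 (lowest, 17.17) and 0.647 for PKM2 in that array (lowest, 16.44). Arrays above their group were Creole TN replicate 2 for HK2 (0.920, at 13.98), F1 HS replicate 2 for HK2 (0.728, at 13.56), Creole TN replicate 4 for PFKM (0.672, at 17.97) and Creole HS replicate 2 for PGAM2 (0.677, at 18.61). Genes that vary together give flags in the same array, so the 11 are not independent.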

How the results depend on the processing

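The 6 of 9 genes lower in HS stayed 6 with each of the 35 arrays left out (range 6 to 6), and the count was 2 with array brightness and 2 with the leukocyte markers as a covariate. PKM2 lost its call under both covariates. Under these, the linked genes passing with temperature went from 25 to 7 and 9 (21 to 26 with arrays left out). The share of all kept probes passing went from 16.0% to 5.04% and 6.26%. Creole against Large White gave 1 linked gene with the gene mean and 1 with the leukocyte covariate. Within Creole the count of 2 was 0 with 75th percentile scaling, spike-in scaling, the brightness covariate and the leukocyte covariate, 1 with median scaling and the slide block, 5 with the gene mean, 4 with the second brightest probe and 4 with the dimmest kept probe, an alternative added after seeing the data. With arrays left out it ran from 0 to 5, and in Large White from 0 to 1. The 26 correlated pairs were 41 with 75th percentile and 44 with median scaling, and 18 to 28 with arrays left out. No other count changed by over 1.5 times. Only genes that did not pass changed sign. HK2 was 0.0289 log2 with median scaling, 0.106 with spike-in scaling, 0.0467 with array weights, and -0.140 to 0.0996 with arrays left out. GAPDH was 0.00763 with the gene mean, 0.0215 with the second brightest and with the dimmest probe, 0.00276 with the brightness covariate, and -0.0108 to 0.000337 with arrays left out. The cause of these shifts was not tested. No paired analysis was possible because replicate numbers follow the order of deposition and the labels tie no array to a litter, pen or day.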
